A study of Mus musculus with 18 samples.

Results

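The mRNA levels of 10 autophagy genes were examined in mouse NIH3T3 fibroblasts: the soluble cargo receptors Sqstm1, Nbr1, Optn, Tax1bp1 and Calcoco1, and the ATG8 family members Map1lc3a, Map1lc3b, Gabarap, Gabarapl1 and Gabarapl2. They were chosen by name as members of these families, and they make up 10 of the 24062 genes counted. NIH3T3 is an embryonic fibroblast line. The parental line (WT) and a derived line, NIH3T3-mCherry-mTRIM21 (TRIM21), which carries mouse TRIM21 fused to the red fluorescent protein mCherry, were each given 1 of 3 loads by electroporation: PBS alone, BSA (bovine serum albumin, a control protein) or IgG (an antibody). The 6 groups were therefore WT with PBS, WT with BSA, WT with IgG, TRIM21 with PBS, TRIM21 with BSA and TRIM21 with IgG, with 3 samples in each. All groups received 2 pulses of 20 ms at 1400 V, the BSA and IgG groups received 7.5 µg of protein, and RNA was taken at 16 h. Samples carry the numbers 10, 11 and 14 within each group. The TRIM21 line is 1 derived line, so an effect of the introduced gene and any other difference between these lines cannot be told apart, and neither the promoter that drives the fusion nor whether the line is clonal is given in the sources used here.

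In selective autophagy, a cargo receptor binds ubiquitin-tagged or otherwise marked cargo at one end and a lipid-linked ATG8 protein on the growing autophagosome membrane at the other. The ATG8 proteins fall into an LC3 branch and a GABARAP branch, and they serve both in recruiting cargo and in autophagosome maturation. TRIM21, a ubiquitin ligase of the cytosol, recognises the Fc region of an antibody and directs antibody-bound proteins to the proteasome, and it has also been linked to autophagy receptors.

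The 18 libraries held 19509017 to 29766433 reads assigned to genes, with a median of 22190254. Trim21, the gene that separates the lines, drew between 142 and 223 reads in each WT library (n = 9) and between 19900 and 32225 in each library of the TRIM21 line (n = 9), so each library matched its line label. All 8 fibroblast markers examined were at 1 CPM (read counts scaled to a common library size with TMM factors) or more on average. Their summed level was 16180 to 27426 CPM in the TRIM21 line and 23292 to 31205 CPM in the WT line, and the part of this difference in the results below was not tested. None of 4 epithelial or 4 endothelial markers reached a mean of 1 CPM. Of the leukocyte markers 1 of 4 did, Cd68, at 4.57 to 8.48 CPM, while Emr1 was at 0 in every sample. The marker levels were scaled without TMM factors. All CPM below are read counts scaled to a common library size with TMM factors. Sample 11 of the TRIM21 PBS group stood apart: it held the lowest value of 23.8% and the highest value of 24.7% of the 12140 genes tested, and the lowest value of 6 of the 10 autophagy genes. Those 6 were Sqstm1, Nbr1, Calcoco1, Map1lc3a, Map1lc3b and Gabarap. Sample 14 of the WT PBS group held the lowest value of 17.6% and the highest value of 16.2% of the genes tested, and the highest value of Nbr1, Tax1bp1 and Gabarap.

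Levels can be compared between genes only per length of transcript, here as CPM divided by the length in kb of the longest coding transcript. On that scale the 10 genes spanned a wide range in these fibroblasts. Gabarap, of the GABARAP branch, was highest at 244 ± 30.3 CPM per kb (SD, n = 18), followed by Sqstm1, which encodes the receptor p62, at 85.9 ± 9.90 CPM per kb (SD, n = 18). Every sample of Gabarap was above every sample of Sqstm1, and every sample of Sqstm1 was above every sample of the next gene.

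The middle of the order was crowded. Tax1bp1 stood at 37.2 ± 3.62 CPM per kb, Gabarapl1 at 34.6 ± 2.59, Map1lc3a at 32.5 ± 6.82 and Nbr1 at 31.8 ± 3.49 (SD, n = 18 each). The ranges of these neighbours overlapped: Tax1bp1 was above Gabarapl1 in 15 of 18 samples, Gabarapl1 above Map1lc3a in 11, and Map1lc3a above Nbr1 in 11, so their order is not settled beyond the spread. Map1lc3b, the LC3B gene, followed at 25.9 ± 3.65 CPM per kb and was below Nbr1 in all 18 samples, although the ranges over samples overlapped.

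Calcoco1 was at 12.3 ± 3.48 CPM per kb and Gabarapl2 at 5.27 ± 0.651 CPM per kb (SD, n = 18 each), with Calcoco1 the higher in 17 of 18 samples. Optn, the optineurin gene, was lowest at 0.546 ± 0.202 CPM per kb, and no sample of it overlapped Gabarapl2. Optn rested on 17 to 49 reads per sample, against 140 or more for each of the other 9 genes, so its single-sample values are the least precise. Part of the Gabarapl2 transcript (20.9%) matched the loci Gm3724, Gm5829 and Gm6051 at 95% identity or more, and reads that aligned to several places stayed out of the gene counts, so the level of Gabarapl2 is uncertain.

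**Figure D1:**
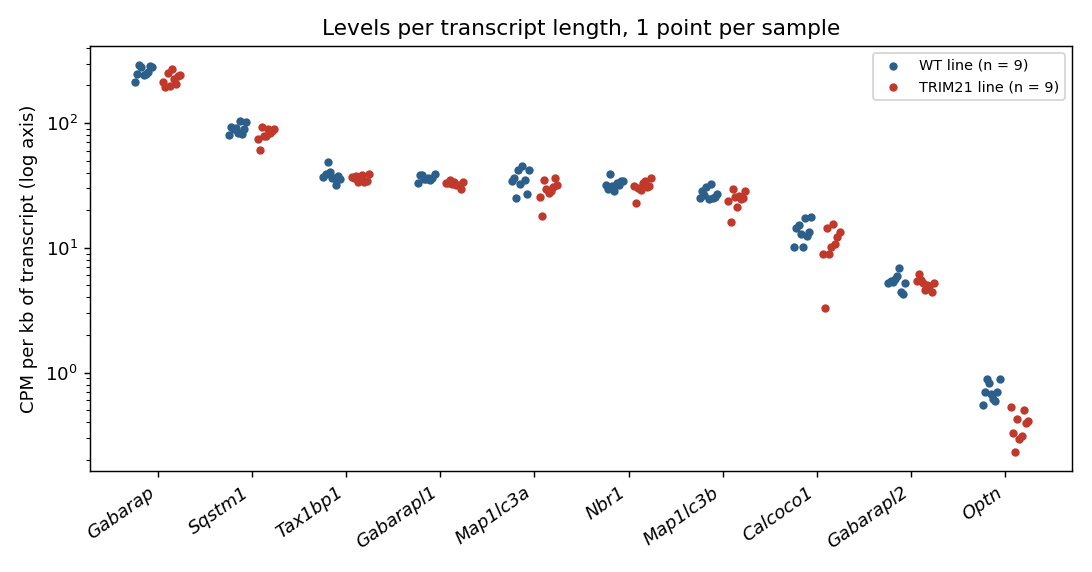
Level of each gene in CPM per kb of transcript (log axis) in the 9 WT and 9 TRIM21 samples, 1 point per sample, ordered by the mean over 18 samples. Gabarap at 244 and Sqstm1 at 85.9 CPM per kb sit apart at the top, Optn at 0.546 sits apart at the bottom, and Tax1bp1, Gabarapl1, Map1lc3a and Nbr1 overlap.

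Within the ATG8 family, the summed level per kb was made up mostly of Gabarap, with 71.2% ± 2.41 (SD, n = 18) and a range of 67.2% to 75.7%. Gabarapl1 contributed 10.2% ± 0.811, Map1lc3a 9.47% ± 1.59, Map1lc3b 7.58% ± 0.885 and Gabarapl2 1.56% ± 0.275 (SD, n = 18 each). These shares, and those of the receptors below, rest on the longest coding transcript of each gene. Which transcripts the cells used was not determined, and the uncertain counting of Gabarapl2 bears on its share. The makeup was close in both lines: Gabarap took 71.2% ± 2.17 in the TRIM21 line and 71.2% ± 2.76 in the WT line (SD, n = 9 each). Among the receptors, Sqstm1 took 51.2% ± 1.97, Tax1bp1 22.3% ± 2.44, Nbr1 19.0% ± 1.28 and Calcoco1 7.20% ± 1.52 of their summed level per kb, and Optn took 0.322% ± 0.102 (SD, n = 18 each).

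The lines were compared first, as the difference between the TRIM21 and WT lines averaged over the 3 treatments. All 10 genes had a lower fitted level in the TRIM21 line, and 1 of the 10, Optn, passed the test. Within single treatments the group means of some genes were higher in that line. These log2 differences were 0.06 for Nbr1 with BSA, and 0.02 for both Tax1bp1 and Map1lc3b with IgG. For Gabarapl2 they were 0.09 with PBS and 0.07 with IgG, and all other differences within a treatment were negative. The median log2 difference of the 10 genes was -0.16, against 0.01 over all 12140 genes tested, of which 46.0% were below 0. With edgeR's quasi-likelihood test and Benjamini-Hochberg adjustment at 0.05, 750 genes (6.18%) were called in either direction, 581 (4.79%) of them lower and 169 (1.39%) higher in the TRIM21 line. A count of 1 in 10 is near that background. Without sample 14 of the TRIM21 PBS group the count over all genes was 1268. At an unadjusted p under 0.05 were 4 of the 10 genes, against 21.4% of all genes tested. In bulk RNA, fewer cells of a type and less RNA per cell cannot be told apart. Nothing in the labels says that the samples of a group came from separate cultures. The p-values therefore set each difference against the spread between these samples, which may be technical.

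Optn (chr2:5020642-5064051, minus strand, GRCm38, protein coding) encodes optineurin, a receptor for bacteria and damaged mitochondria that the kinase TBK1 phosphorylates. In the WT line, samples 10, 11 and 14 had 1.42, 1.82 and 2.30 CPM with PBS, 2.14, 1.75 and 1.62 CPM with BSA, and 1.53, 1.83 and 2.32 CPM with IgG. In the TRIM21 line they had 1.38, 0.850 and 0.608 CPM with PBS, 1.11, 0.760 and 0.817 CPM with BSA, and 1.30, 1.04 and 1.08 CPM with IgG. All 9 TRIM21 samples were below all 9 WT samples, a pattern that 203 of all tested genes (1.67%) showed in that direction. The closest pair of values, 1.38 and 1.42 CPM, came from the samples numbered 10 with PBS.

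Optn fell in the TRIM21 line to 0.531 of its WT level, from 1.86 ± 0.325 to 0.994 ± 0.256 CPM (SD, n = 9 each). The log2 fold change was -0.91 (SE 0.16, 95% interval -1.25 to -0.57), with an adjusted p of 0.00142 by edgeR's quasi-likelihood test with Benjamini-Hochberg adjustment. It was the 196th smallest p of the 12140. The log2 difference of the group means was -0.97 with PBS, -1.03 with BSA and -0.73 with IgG, so Optn was lower under each treatment. Split by sample number, the difference was less even, at -0.42 for number 10, -1.03 for number 11 and -1.32 for number 14. Leaving out any 1 of the 18 samples gave log2 fold changes from -1.03 to -0.83. The underlying counts were 17 to 30 reads per TRIM21 sample and 32 to 49 per WT sample. Exons of 4930551O13Rik on the opposite strand cover 1.95% of the exonic bases of Optn.

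Because Optn was the gene called, the 250 bases before its RefSeq start are shown (chr2:5064118-5064367, minus strand, GRCm38.p6, lower case because no motif searched was found in it):
Optn: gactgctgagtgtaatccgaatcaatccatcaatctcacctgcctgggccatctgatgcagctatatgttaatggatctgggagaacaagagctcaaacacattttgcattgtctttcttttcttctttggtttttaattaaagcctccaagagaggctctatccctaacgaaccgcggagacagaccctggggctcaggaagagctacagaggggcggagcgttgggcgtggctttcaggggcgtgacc

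Promoter windows of 300 bases, 250 before to 50 after each RefSeq start, were present for 9 of the 10 genes, in 11 windows. They were searched on both strands for CACGTG, the E-box core of the lysosomal CLEAR element, for TGACNNNGC, the core of the antioxidant response element, and for an NF-kB site. CACGTG was in none of the windows of the 9 genes, against 7.17% of 32544 promoter windows, and the NF-kB site was likewise in none, against 0.415%. TGACNNNGC was in 2 of the 11 windows, belonging to Tax1bp1 and Map1lc3b, against 12.4% of all windows. The 2 matches are printed with their flanks, with the motif in capitals (Tax1bp1 at chr6:52713950-52713978 and Map1lc3b at chr8:121590432-121590460, both plus strand, GRCm38.p6):
Tax1bp1: gtctccgtggTGACGAAGCtctctttccc
Map1lc3b: gcgagtcaccTGACTCGGCtgcggactga
These are letter matches only.

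**Figure D2:**
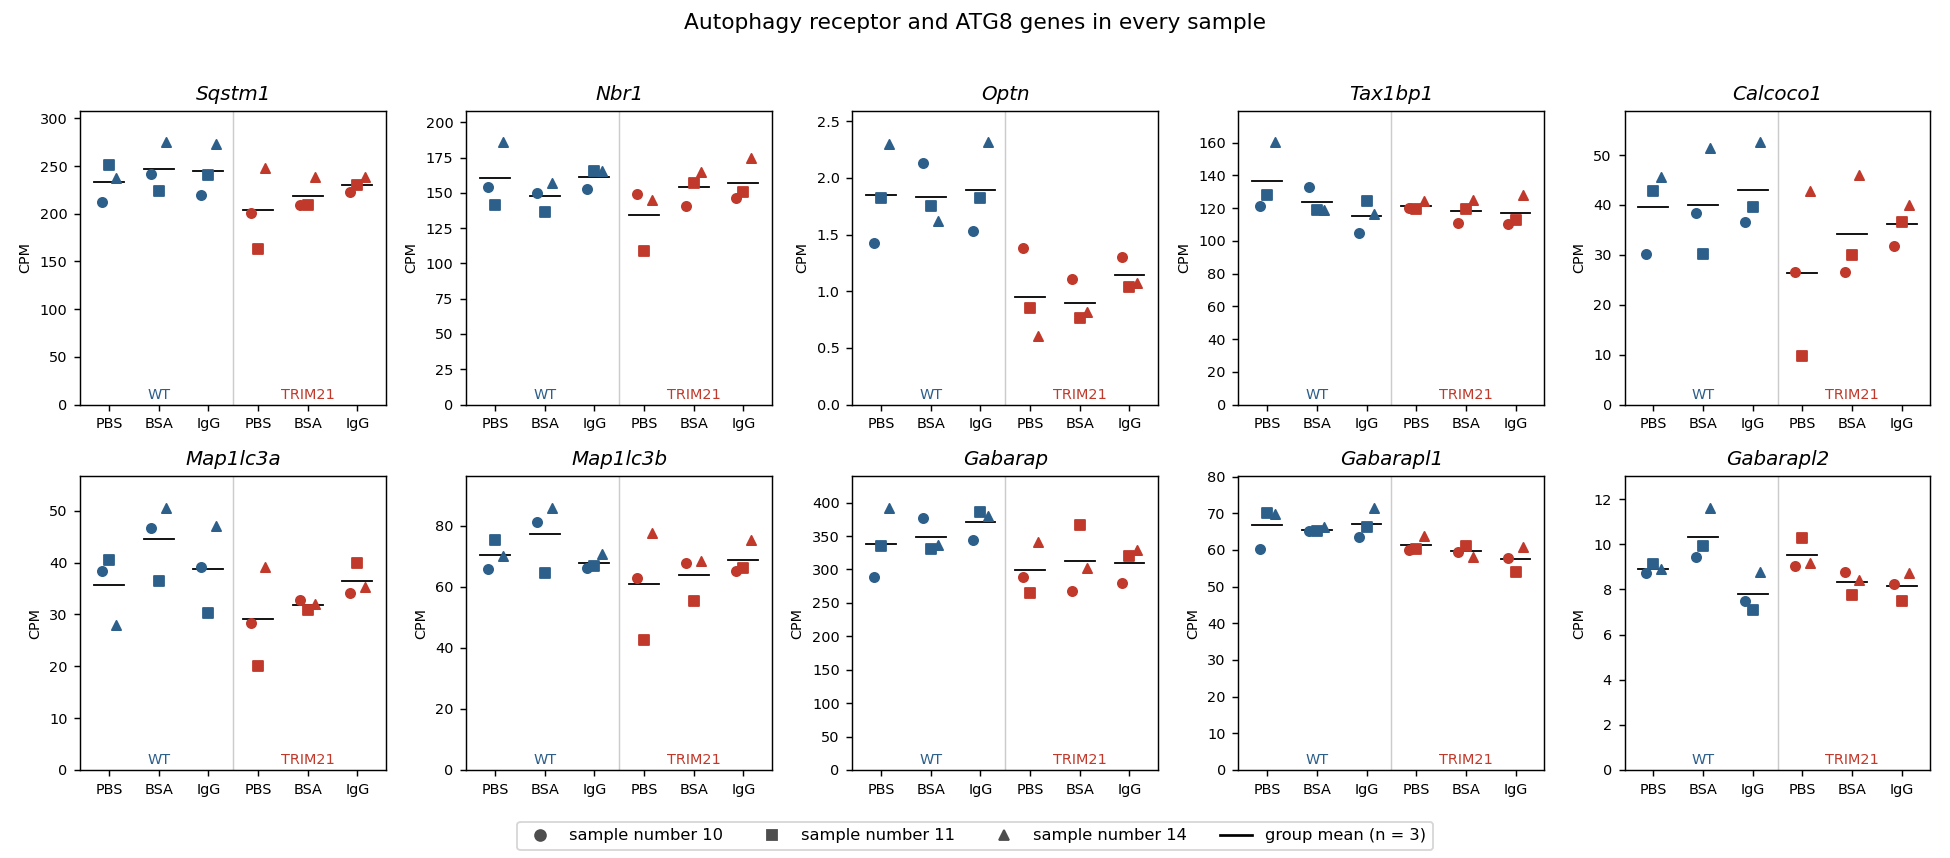
CPM of each gene in every sample, by line and treatment; points are samples, shaped by sample number, and bars are means of 3 samples. Optn is the gene whose TRIM21 samples (0.608 to 1.38 CPM) all lie below its WT samples (1.42 to 2.32 CPM); in the panel of Calcoco1, sample 11 of the TRIM21 PBS group lies at 9.80 CPM.

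Sqstm1 (chr11:50199366-50210827, minus strand, GRCm38) encodes p62, which gathers ubiquitinated proteins into condensates and is itself degraded with them. Its lowest, median and highest values were 163, 223 and 248 CPM in the TRIM21 line and 212, 241 and 275 CPM in the WT line (n = 9 each), and the lines overlapped, with 5 TRIM21 samples above the lowest WT sample. The log2 difference was -0.15 (SE 0.08), with an adjusted p of 0.255 by edgeR's quasi-likelihood test. Exons of Mrnip on the opposite strand cover 17.3% of the exonic bases of Sqstm1.

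Nbr1 (chr11:101552149-101581951, plus strand, GRCm38) encodes a receptor that binds ubiquitinated proteins and works together with p62. It had 109, 149 and 175 CPM in the TRIM21 line and 136, 154 and 186 CPM in the WT line as lowest, median and highest values, with a log2 difference of -0.08 and an adjusted p of 0.564 by edgeR's quasi-likelihood test. Tax1bp1 (chr6:52713729-52766780, plus strand, GRCm38), a receptor that brings the initiation machinery to p62 condensates, had 110, 120 and 128 CPM in the TRIM21 line and 105, 121 and 160 CPM in the WT line. Its log2 difference was -0.07, with an adjusted p of 0.540 by edgeR. For both genes the lines overlapped almost throughout, with 8 of 9 and 9 of 9 TRIM21 samples above the lowest WT sample.

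Calcoco1 (chr15:102706777-102722178, minus strand, GRCm38), which encodes a receptor for the endoplasmic reticulum and Golgi, varied most. Samples 10, 11 and 14 of the TRIM21 line had 26.6, 9.80 and 42.8 CPM with PBS, 26.6, 30.0 and 45.9 CPM with BSA, and 31.8, 36.5 and 40.0 CPM with IgG. The WT line had 30.2, 42.8 and 45.5 CPM with PBS, 38.3, 30.1 and 51.4 CPM with BSA, and 36.7, 39.7 and 52.6 CPM with IgG. When samples sharing a treatment and a number were set side by side, the TRIM21 sample was lower in 9 of 9 cases. How many of all tested genes were lower in every such case was not counted. The lines overlapped, and the log2 difference of -0.35 (SE 0.20, 95% interval -0.77 to 0.07) did not pass the test, with an adjusted p of 0.321 by edgeR's quasi-likelihood test. Samples of the TRIM21 PBS group moved this value in both directions: the difference was -0.23 without sample 11 and -0.54 without sample 14, with adjusted p of 0.461 and 0.0582 by edgeR. The pooled within-group SD of log2 CPM was 0.53 for Calcoco1, which is above that of 96.7% of the genes tested, whose median was 0.18.

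Of the ATG8 genes none passed the test between the lines. Map1lc3a (chr2:155276297-155278073, plus strand, GRCm38), the LC3A gene, had lowest, median and highest values of 20.2, 32.8 and 40.0 CPM in the TRIM21 line and 28.0, 39.1 and 50.6 CPM in the WT line. The log2 difference was -0.29 (SE 0.12), with an unadjusted p of 0.0244 and an adjusted p of 0.161 by edgeR's quasi-likelihood test. It passed the threshold in 1 of the 18 fits that left out a sample, the one without sample 14 of the TRIM21 PBS group, with -0.38 and an adjusted p of 0.0286 by edgeR.

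Map1lc3b (chr8:121590361-121598760, plus strand, GRCm38), whose protein LC3B is the usual marker of autophagosomes, had 42.5, 66.1 and 77.5 CPM in the TRIM21 line and 64.4, 70.2 and 85.9 CPM in the WT line, and the lines overlapped. The log2 difference was -0.15 (SE 0.09), with an adjusted p of 0.353 by edgeR's quasi-likelihood test. Without sample 11 of the TRIM21 PBS group, which held the lowest value, it was -0.09.

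Gabarap (chr11:69991143-69994951, plus strand, GRCm38) had 265, 303 and 367 CPM in the TRIM21 line and 288, 344 and 393 CPM in the WT line as lowest, median and highest values. The log2 difference was -0.20 (SE 0.08), with an unadjusted p of 0.0182 and an adjusted p of 0.139 by edgeR's quasi-likelihood test.

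Gabarapl1 (chr6:129533160-129542346, plus strand, GRCm38), a paralogue of Gabarap whose mRNA is known to respond to FoxO factors in muscle, was the steadiest of the 10. In the TRIM21 line samples 10, 11 and 14 had 60.1, 60.2 and 63.9 CPM with PBS, 59.5, 61.1 and 58.1 CPM with BSA, and 57.9, 54.1 and 60.8 CPM with IgG. In the WT line they had 60.3, 70.2 and 69.9 CPM with PBS, 65.2, 65.1 and 66.4 CPM with BSA, and 63.5, 66.2 and 71.6 CPM with IgG. The TRIM21 sample was the lower in 9 of 9 pairs matched by treatment and number. How many of all tested genes were lower in every such pair was not counted, and the labels do not say that the numbers mark pairs. Of the TRIM21 samples, 3 lay above the lowest WT sample, which was sample 10 with PBS.

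The pooled within-group SD of log2 CPM of Gabarapl1 was 0.08, larger than that of only 2.53% of the genes tested. Its log2 difference between lines was -0.16 (SE 0.05, 95% interval -0.26 to -0.06), with an unadjusted p of 0.00343, and it missed the threshold with an adjusted p of 0.0530 by edgeR's quasi-likelihood test. With the DESeq2 Wald test the adjusted p was 0.0258. In edgeR it was 0.0262 without sample 10 of the WT PBS group and 0.0374 without sample 14 of the TRIM21 PBS group. The call of Gabarapl1 thus changed with the setting, while the difference itself stayed between -0.19 and -0.14 over the 18 fits that left out a sample. Exons of 1700101I11Rik on the opposite strand cover 28.3% of the exonic bases of Gabarapl1, and that gene had 0 to 5 counts per sample.

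Gabarapl2 (chr8:111940703-111953612, plus strand, GRCm38), which encodes GATE-16, had 7.47, 8.75 and 10.3 CPM in the TRIM21 line and 7.11, 8.91 and 11.6 CPM in the WT line as lowest, median and highest values. The lines overlapped and the TRIM21 sample was the lower in 4 of 9 pairs. The log2 difference was -0.05, with an adjusted p of 0.705 by edgeR's quasi-likelihood test.

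**Figure D3:**
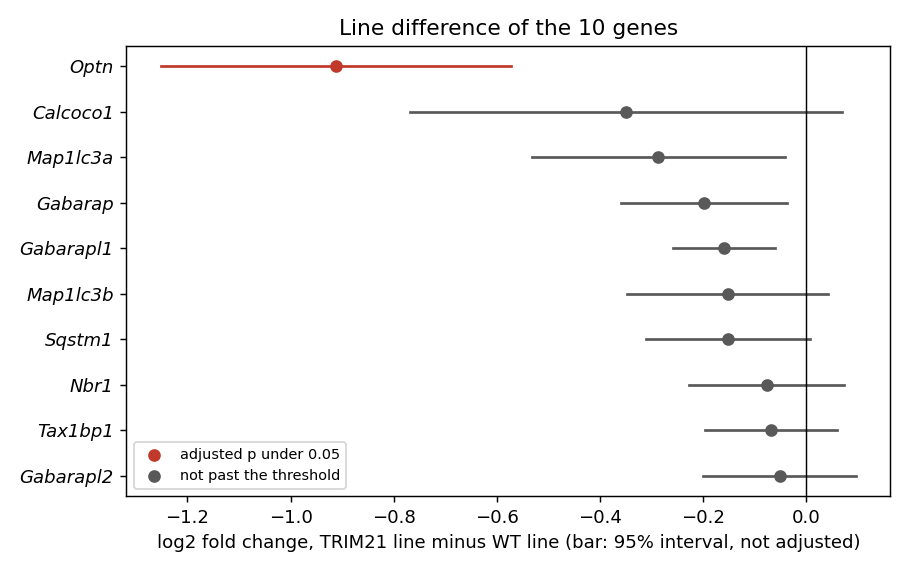
Log2 fold change of each gene between the lines (TRIM21 minus WT, averaged over treatments) with its unadjusted 95% interval. All 10 points are below 0; Optn, at -0.91, is the one past the adjusted threshold, and the interval of Gabarapl1, -0.26 to -0.06, is the narrowest.

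The other genes of the pathway were read from 4 lists of 94 genes in all. Of 32 genes of the core autophagy machinery, 1 was called between the lines, against 6.18% of all 12140 genes tested. The median log2 difference of the list was -0.01. The called gene was Atg9b, a lipid scramblase paralogue of Atg9a, which rose from 4.79 ± 1.15 CPM in the WT line to 8.00 ± 1.29 CPM in the TRIM21 line (SD, n = 9 each). That is a log2 fold change of 0.74 (SE 0.13) with an adjusted p of 0.00106 by edgeR's quasi-likelihood test. The remaining members ranged down to -0.26, and 4 of the 32 had an unadjusted p under 0.05, against 21.4% of all genes tested. Without sample 14 of the TRIM21 PBS group 2 were called, as were 1268 of all 12220 genes tested in that fit. Exons of Nos3 on the opposite strand cover 7.45% of the exonic bases of Atg9b.

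Of 18 other cargo receptors, 17 were tested and none was called by edgeR or by DESeq2, against 6.18% of all genes tested in edgeR. At an unadjusted p under 0.05 in edgeR were 4 of the 17, against 21.4% of all genes tested. The median log2 difference was -0.05. Calcoco2, the mouse counterpart of the receptor NDP52, had 1 count over all 18 samples and was not tested. Bnip3l, a mitophagy receptor, had the smallest p of the list, with 222 ± 42.0 CPM in the TRIM21 line and 269 ± 23.7 CPM in the WT line (SD, n = 9 each), a log2 difference of -0.28 and an adjusted p of 0.155 by edgeR.

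Of 19 partners and regulators of the receptors, 2 were called: Trim21 itself, the gene introduced, at a log2 fold change of 7.02, and Mitf. The call of Trim21 follows from how the line was made and says nothing on the rest of the list. Over all genes tested, 6.18% were called in either direction. The median of the list was -0.01. Mitf, a transcription factor related to Tfeb, fell from 12.1 ± 1.76 CPM in the WT line to 9.25 ± 1.75 CPM in the TRIM21 line (SD, n = 9 each). That is a log2 fold change of -0.39 (SE 0.10) with an adjusted p of 0.0307 by edgeR's quasi-likelihood test. That call was lost, with adjusted p from 0.0543 to 0.0751 by edgeR, without any 1 of 6 samples: numbers 10 and 14 of TRIM21 with BSA, number 10 of TRIM21 with IgG, number 14 of WT with PBS, number 14 of WT with BSA and number 11 of WT with IgG. Tbk1, which encodes the kinase that acts on optineurin, had a log2 difference of -0.13 with an adjusted p of 0.293 by edgeR, and was picked here for its link to Optn after its value was seen.

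Of 25 lysosomal genes 2 were called, both lower in the TRIM21 line, and the list's median was -0.05. Over all genes tested, 6.18% were called in either direction and 4.79% were called lower in that line. Npc2, a carrier of cholesterol in the lysosome, fell from 525 ± 30.7 to 420 ± 18.9 CPM (SD, n = 9 each). That is a log2 fold change of -0.32 (SE 0.05) with an adjusted p of 0.000279 by edgeR's quasi-likelihood test.

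**Figure D4:**
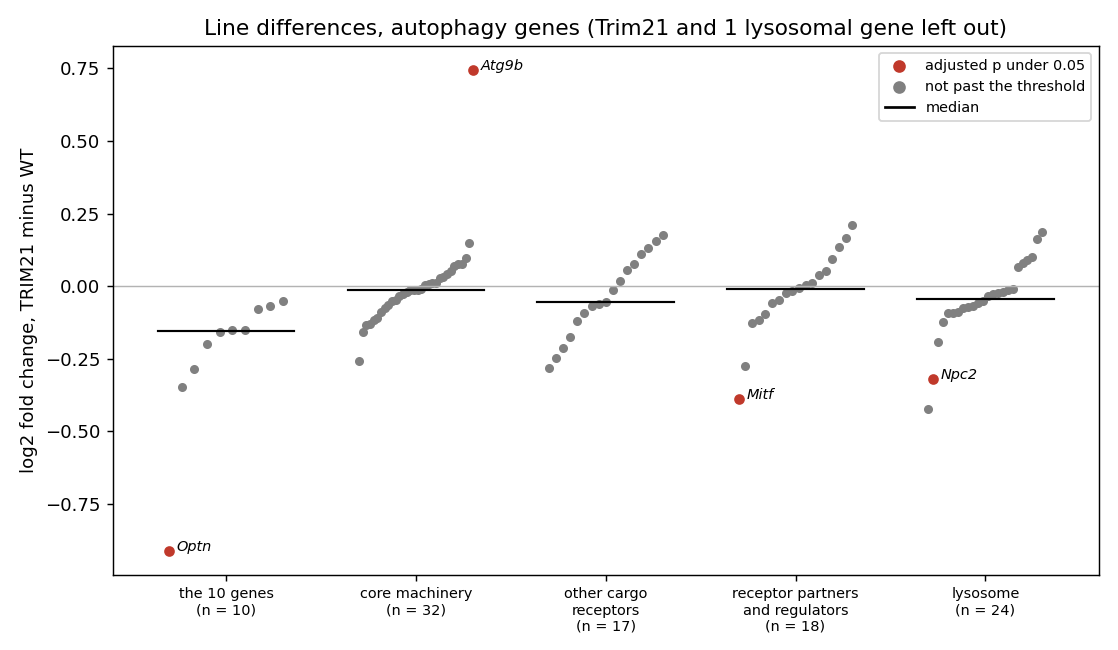
Log2 fold change between the lines (TRIM21 minus WT) of the 10 genes and of 4 lists of pathway genes, Trim21 and 1 lysosomal gene left out; points are genes and bars are medians. The medians of the lists lie between -0.05 and -0.01 and that of the 10 genes at -0.16; the called genes shown are Optn, Atg9b, Mitf and Npc2.

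The treatments were then compared within each line, to ask whether an antibody or a control protein in the cytosol went with a change in these mRNAs. None of the 10 genes was called in any of the 6 treatment comparisons or the 3 tests of whether a treatment difference itself differed between lines. No gene at all was called in any of these 9 comparisons by edgeR (0% of 12140) or by the DESeq2 Wald test. The number of genes at an unadjusted p under 0.05 in edgeR ran from 45 for IgG minus BSA in the TRIM21 line to 790 for the line difference in BSA minus PBS. Comparisons within a line share samples, so their values are given side by side and not as separate support.

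In the TRIM21 line, IgG minus PBS gave log2 differences from -0.22 for Gabarapl2 to 0.44 for Calcoco1, with a median of 0.17 over the 10 genes against 0.01 over all genes. The PBS group of that comparison holds sample 11, which stood apart. Nbr1 had the smallest p, with 149, 109 and 145 CPM after PBS and 146, 151 and 175 CPM after IgG in samples 10, 11 and 14. The groups overlapped, and the difference of 0.23 (95% interval -0.03 to 0.49) had an unadjusted p of 0.0826 and an adjusted p of 0.724 by edgeR's quasi-likelihood test. Without sample 11 of the PBS group it was 0.12.

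IgG minus BSA in the same line ranged from -0.05 to 0.35 over the 10 genes, and BSA minus PBS from -0.19 to 0.36. Optn had the smallest p in the first, at 0.35 (95% interval -0.27 to 0.97, unadjusted p of 0.252), and Nbr1 in the second, at 0.20 (95% interval -0.06 to 0.46, unadjusted p of 0.128). Without sample 10 of the BSA group the Optn difference was 0.53, and without sample 11 of the PBS group the Nbr1 difference was 0.08. The intervals of the low or variable genes Optn and Calcoco1 were wide: for Calcoco1 the interval of IgG minus PBS ran from -0.29 to 1.17.

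Sqstm1 in the TRIM21 line had 201, 163 and 248 CPM after PBS, 209, 209 and 239 CPM after BSA, and 223, 230 and 238 CPM after IgG in samples 10, 11 and 14. The groups overlapped, and IgG minus PBS was 0.18 (95% interval -0.10 to 0.45). For Map1lc3b the same difference was 0.17 (95% interval -0.17 to 0.51). For Gabarap it was 0.05 (95% interval -0.23 to 0.33).

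In the WT line, IgG minus PBS ranged from -0.25 to 0.13, with a median of 0.02. Tax1bp1 had the smallest p: it had 121, 128 and 160 CPM after PBS and 105, 125 and 116 CPM after IgG in samples 10, 11 and 14. These groups overlapped, and the difference of -0.25 had an unadjusted p of 0.0305 and an adjusted p of 1 by edgeR's quasi-likelihood test. Without sample 14 of the WT PBS group, which held the highest value, the difference was -0.11.

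Gabarapl2 had the smallest p in the other WT comparisons. Samples 10, 11 and 14 of the WT line had 8.72, 9.11 and 8.91 CPM after PBS, 9.46, 9.95 and 11.6 CPM after BSA, and 7.48, 7.11 and 8.77 CPM after IgG. All 3 BSA samples were above all PBS and IgG samples, but how many of all tested genes showed such a separation was not counted. IgG minus BSA was -0.41 (95% interval -0.67 to -0.15), with an unadjusted p of 0.00345 and an adjusted p of 0.741 by edgeR's quasi-likelihood test, and BSA minus PBS was 0.22, with an unadjusted p of 0.0907. Without sample 14 of the WT BSA group, BSA minus PBS was 0.13. In the TRIM21 line the matching values were 9.03, 10.3 and 9.19 CPM after PBS, 8.77, 7.74 and 8.44 CPM after BSA, and 8.26, 7.47 and 8.75 CPM after IgG, so there the PBS samples were the highest.

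The test of whether a treatment difference itself differed between the lines gave its smallest p for Gabarapl2 in 2 of 3 cases. For BSA minus PBS it was -0.41 (95% interval -0.77 to -0.05), with an unadjusted p of 0.0286 and an adjusted p of 0.651 by edgeR. For IgG minus BSA it was 0.38, with an unadjusted p of 0.0392 and an adjusted p of 0.843 by edgeR. For IgG minus PBS the smallest p, 0.206, was that of Tax1bp1, whose value of 0.19 was 0.07 without sample 14 of the WT PBS group. None passed the adjusted threshold, and the uncertain counting of Gabarapl2 bears on these values.

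**Figure D5:**
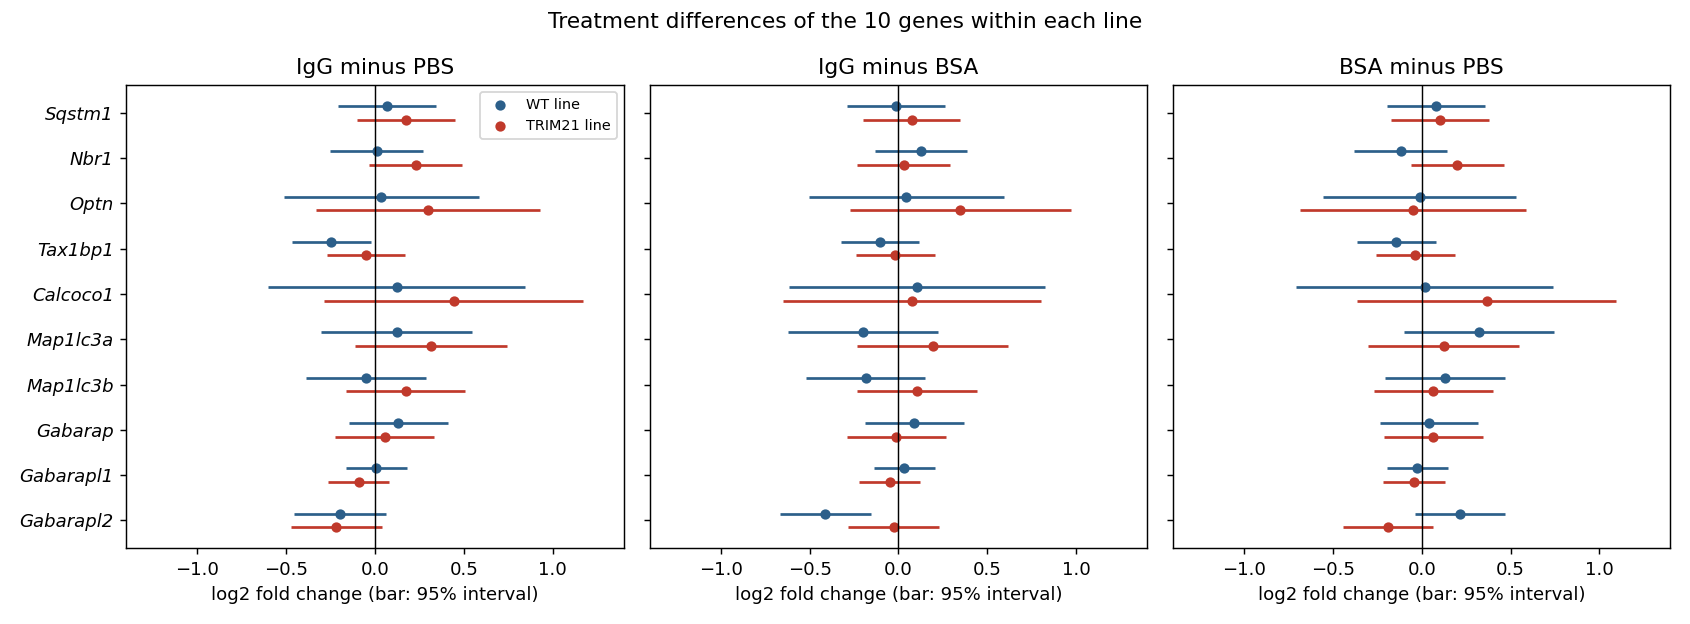
Log2 fold changes of the 10 genes for IgG minus PBS, IgG minus BSA and BSA minus PBS in the WT and TRIM21 lines, with unadjusted 95% intervals. Most intervals include 0; those of Tax1bp1 in IgG minus PBS and of Gabarapl2 in IgG minus BSA, both in the WT line, do not, and neither passes the adjusted threshold. The widest intervals belong to Calcoco1 and Optn.

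The 4 pathway lists likewise held no called gene in any treatment or interaction comparison. In IgG minus PBS of the TRIM21 line their medians were 0.04 for the core machinery, 0.04 for the other cargo receptors, 0.08 for the partners and regulators and 0.03 for the lysosomal genes.

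The genes whose levels ran most like those of 3 members were found by Pearson's r of log2 CPM over the 18 samples, as a description, since the samples share lines, treatments and library effects. For Sqstm1 they were Col6a1 at 0.956, Pink1 at 0.956 and Col1a2 at 0.954: collagen genes and the kinase gene of the mitophagy pathway. The most alike of the 10 genes was Calcoco1, at 0.950. Without sample 11 of the TRIM21 PBS group the order among these genes changed: Calcoco1 was at 0.933, above Col6a1 at 0.917, Pink1 at 0.913 and Col1a2 at 0.910. The search over all genes was not repeated without that sample. Sqstm1 and Calcoco1 therefore ran nearly in parallel across samples, although Calcoco1 varied far more.

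For Map1lc3b the most alike genes were Sphk1 at 0.956, Arsa at 0.940 and Fcgrt at 0.934. Sqstm1 was the most alike of the 10 genes, at 0.881. Without sample 11 of the TRIM21 PBS group these values were 0.909, 0.864 and 0.845, and that of Sqstm1 was 0.757. For Gabarapl1 they were Lum at 0.889, Lgals9 at 0.878 and Maf at 0.856, all 3 of which were called lower in the TRIM21 line, with log2 fold changes of -2.54, -0.44 and -1.18 and adjusted p of 5.26e-05, 0.00383 and 4.16e-05 by edgeR's quasi-likelihood test. The r was taken over both lines, so a line difference in the direction of Gabarapl1 entered the choice of these genes. Their calls are therefore no separate result. Within the TRIM21 line alone (n = 9) the r of Gabarapl1 was 0.705 with Lum, 0.343 with Lgals9 and 0.438 with Maf. Within the WT line alone (n = 9) it was 0.742, 0.933 and 0.725. The most alike of the 10 genes was Gabarap, at 0.678.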

How the data were processed

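RNA of 18 NIH3T3 samples was sequenced on an Illumina NextSeq from stranded TruSeq libraries of polyA RNA, according to the labels. The deposited values are raw read counts per gene symbol, 1 table per sample, made by the authors. The submitters' processing notes name mm10, bcl2fastq 2.19.1.403, FastQC 0.11.5, STAR 2.5.1b, HTSeq 0.6.0 and DESeq2 1.6.3 without roles. The annotation and strand setting of the counting are not given in the sources used here. Reads aligned to several places made up 36.4% to 40.6% of the lines listed and are outside the gene counts, as are reads given to no gene (13.1% to 18.8% of reads aligned once) or to several (0.473% to 0.630%).

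Counts were analysed in R 4.3.3 with edgeR 4.0.16: filterByExpr (minimum count 10, minimum total 15) left 12140 of 24062 genes, all 10 genes included, TMM factors were 0.977 to 1.03, and the quasi-likelihood fit took all 18 samples together with a separate mean for each of the 6 groups, with Benjamini-Hochberg adjustment over all tested genes and a threshold of 0.05. It was tested on simulated data. CPM are TMM-scaled. Fold changes are log2. The numbers 10, 11 and 14 from the titles were not used as a block. Alternatives were DESeq2 size factors, no filter, 10 counts in every sample, a replicate block, the DESeq2 1.42.0 Wald test, only the groups compared, and each sample left out.

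Gene positions and lengths come from GENCODE for GRCm38, promoter windows from RefSeq (GRCm38.p6), and copies from blastn 2.17.0 (95% identity over 50 bases). Rubcn and Retreg1 were matched by older symbols. The 10 genes and the lists were chosen with earlier results of these data known. The text names all 10 genes. Per list it names up to 4 genes called between the lines, by size, or else the gene with the smallest p. Per treatment comparison it names the member with the smallest p, and per likeness the 3 genes with the highest r. Of the called lysosomal genes, 1 is not reported here.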

Additional observations from a re-analysis of the deposited data

How the results depend on the processing

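Of 909 values recomputed under another setting, 884 kept their direction and side of the threshold, 6 lost and 5 gained a call, 14 counts moved by over 1.5 times and none reversed. Optn was called in every setting run, and all 10 genes had negative line differences in each. The count of the 10 genes called between the lines was 2 with the DESeq2 Wald test, which called 1039 of 14224 genes in all, and 5 lysosomal genes. It was 1 to 3 when 1 sample was left out, and the fit with 3, without sample 14 of the TRIM21 PBS group, called 1268 of 12220 genes, against 750 of 12140 with all samples. When 1 sample was left out, called partners and regulators, Trim21 included, numbered 1 to 3 and called core machinery genes 1 to 2. The cause of these shifts was not tested.

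Same-numbered samples deviated together only in part: over 45 pairs the correlation of their deviations from group means ran from -0.32 to 0.58, with 32 over 0.1, and 16 of 18 samples correlated best with their own number, which is a hint from the data and not the design. With the replicate block, 2 of the 10 genes were called between the lines, Optn and Gabarapl1 (adjusted p of 0.0265 by edgeR). The same fit called 4 partners and regulators, Trim21 included, 5 lysosomal genes and 1462 genes in all. With the replicate block no gene was called in any treatment or interaction comparison. Low counts limit Optn, at 17 to 49 reads per sample.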

Other observations

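Among the lysosomal genes that were not called, 3 were chosen after their values were seen because the DESeq2 Wald test called them. Neu1, a sialidase, was at 7.38 ± 1.77 CPM in the TRIM21 line and 9.89 ± 1.93 CPM in the WT line (SD, n = 9 each), with an adjusted p of 0.0905 by edgeR and 0.0496 by DESeq2. Cd63, a tetraspanin of late endosomes, was at 762 ± 50.5 and 872 ± 94.5 CPM (SD, n = 9 each), with an adjusted p of 0.0856 by edgeR and 0.0451 by DESeq2. Scarb2, a lysosomal membrane receptor, differed in the other direction, with a log2 fold change of 0.19 and an adjusted p of 0.0376 by DESeq2.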
